A study of Mus musculus with 6 samples.

Results

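The islet hormone genes described here are 9 genes that encode secreted peptides of the pancreatic islet: the insulin genes *Ins1* and *Ins2*, the glucagon gene *Gcg*, the somatostatin gene *Sst*, the pancreatic polypeptide family genes *Ppy*, *Pyy* and *Npy*, the ghrelin gene *Ghrl* and the amylin gene *Iapp*. They were chosen by name, and their symbols were matched to the Ensembl identifiers of the deposited table. All 9 of 9 were found among its 37224 genes, and all 9 were among the 15578 genes with enough counts to be tested. Expression was measured by RNA Seq in whole pancreata of wild type (wt) C57/Bl6J mouse embryos, which carried no transgene and received no treatment, at 13.5 and at 15.5 days post coitum (dpc). Each stage had 3 independent samples, and each sample was a pool of up to 3 embryos. The comparison of the stages asks how the hormone transcripts change as the endocrine cells of the pancreas form.

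As background, islet cells arise from progenitors that transiently express *Neurog3*. In the mouse, cells that produce glucagon are the earliest to appear, and large numbers of insulin-producing β cells form in the wave known as the secondary transition. β cells secrete insulin together with amylin, α cells secrete glucagon, δ cells somatostatin, PP cells pancreatic polypeptide and ε cells ghrelin. All these peptides are cut from longer precursors, and many are trimmed by carboxypeptidase E and amidated in secretory granules.

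The insulin genes are the pair most easily confused by sequencing reads, and the start of both coding sequences is therefore shown. *Ins1* lies on chromosome 19 (mm10, chr19:52264323-52265456, plus strand, 2 exons in the deposited table), and *Ins2* on chromosome 7 (chr7:142678656-142699510, minus strand, 3 exons). Their coding sequences, from GENCODE M21, were identical at 300 of 324 aligned bases (92.6%), with a longest identical run of 54 bases. The first 120 coding bases are printed with the 14 bases that differ in capitals.
Ins1: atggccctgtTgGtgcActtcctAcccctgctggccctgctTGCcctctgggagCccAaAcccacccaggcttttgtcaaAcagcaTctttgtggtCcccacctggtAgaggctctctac
Ins2: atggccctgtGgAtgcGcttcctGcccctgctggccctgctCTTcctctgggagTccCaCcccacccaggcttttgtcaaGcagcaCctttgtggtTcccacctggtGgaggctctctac
Over the whole transcripts, only 7 windows of 50 bases were shared by both genes, 0.69% of those of *Ins1* and 0.47% of those of *Ins2*. The members of the pancreatic polypeptide family differed more, with coding identities of 62.1% between *Pyy* and *Npy*, 55.7% between *Pyy* and *Ppy* and 53.1% between *Ppy* and *Npy*, and shared no window. In *Ghrl*, 9.91% of the windows also occurred in *Gm44033*, a gene annotated on the opposite strand. The exons of the 9 genes, as counted, overlapped those of no other gene in the table.

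The promoters of the genes with the highest and the lowest fold change, *Sst* and *Gcg*, are shown next, from RefSeq (GRCm38.p6, 250 bases before to 50 bases after the start), since these genes stood at the ends of the order of rise. Capitals mark TGACGTCA, the cyclic AMP response element for which the somatostatin promoter is a textbook example, and TATAAA on either strand. The *Sst* promoter is chr16:23890795-23891094 and the *Gcg* promoter chr2:62483604-62483903, both on the minus strand and printed in the direction of transcription.
Sst: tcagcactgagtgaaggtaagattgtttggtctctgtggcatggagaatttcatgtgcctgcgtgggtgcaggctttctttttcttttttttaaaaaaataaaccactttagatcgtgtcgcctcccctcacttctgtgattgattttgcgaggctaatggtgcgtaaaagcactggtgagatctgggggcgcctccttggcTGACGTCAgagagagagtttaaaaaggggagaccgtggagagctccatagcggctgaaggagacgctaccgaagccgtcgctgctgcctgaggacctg
Gcg: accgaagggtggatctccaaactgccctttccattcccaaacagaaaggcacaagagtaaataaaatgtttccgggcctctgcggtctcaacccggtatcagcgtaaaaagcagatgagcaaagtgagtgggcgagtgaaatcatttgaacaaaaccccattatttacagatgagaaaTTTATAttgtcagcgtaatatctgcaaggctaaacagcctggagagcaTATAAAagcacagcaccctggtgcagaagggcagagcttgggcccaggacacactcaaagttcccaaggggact
TGACGTCA began 48 bases before the start of *Sst* and occurred in 1.79% of the 32851 promoters of the same length, searched on both strands. TATAAA began 72 and 24 bases before the start of *Gcg*, and 13.62% of promoters held it. Of the 8 members with an entry in the promoter table, TGACGTCA was found in that of *Sst* alone, and TATAAA in those of *Gcg* and *Ppy*. These matches describe the letters of the windows only.

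The samples held 10546028 to 16389237 counts on genes, and the values below are counts normalised for library size and composition. Comparing the stages, 3467 of the 15578 genes passed an adjusted p of 0.05 (22.3%), with 11.6% of all tested genes higher and 10.7% lower at 15.5 dpc. The 15.5 dpc samples differed more among themselves: the coefficient of variation of the hormone genes was 2.35% to 25.8% at 13.5 dpc and 15.4% to 44.5% at 15.5 dpc. The 8 acinar marker genes, all of which rose, summed to 95037 to 114522 at 13.5 dpc, and at 15.5 dpc to 1306140 in replicate 1, 612935 in replicate 2 and 849016 in replicate 3. *Ctrb1* and *Pnliprp1* made up most of each sum, with 708798 and 344317 in 15.5 dpc replicate 1. Among the 15.5 dpc samples, each of the 8 genes was highest in replicate 1 and lowest in replicate 2. Markers of intestine and stomach, organs that also make several of these peptides, were low, with summed counts of 58.3 to 102 over the 6 intestinal genes and of 4.09 to 19.1 over the 6 stomach genes, of which *Gif*, *Muc5ac* and *Tff1* had no count in any sample. *Tff3* and *Lgals4* made up most of the intestinal sum. Whether these genes mark gut tissue of this age was not tested.

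Expression of 8 of the 9 islet hormone genes rose between 13.5 and 15.5 dpc, against a background of 11.6% of tested genes called higher, and none was called lower. At an unadjusted threshold of 0.05, edgeR would call 1 member lower, *Gcg* (adjusted p = 0.114), and DESeq2 called 8 higher and 0 lower. Their median log2 fold change was 1.90, and that of all genes tested was -0.01. Somatostatin rose most, the insulin genes followed, and glucagon did not pass the threshold (edgeR quasi-likelihood test, Benjamini-Hochberg adjusted over all genes). In these bulk samples a higher number of hormone-producing cells and more RNA per cell cannot be told apart. All 8 rising genes were highest in 15.5 dpc replicate 1, the sample that also had the highest acinar sum, and 7 of the 8 had the lowest 15.5 dpc value in replicate 2, which had the lowest acinar sum of that stage. The part of this difference between the samples in the results was not tested. Without replicate 1 all 8 genes were past the threshold, in a fit that called 4266 genes.

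**Figure D1:**
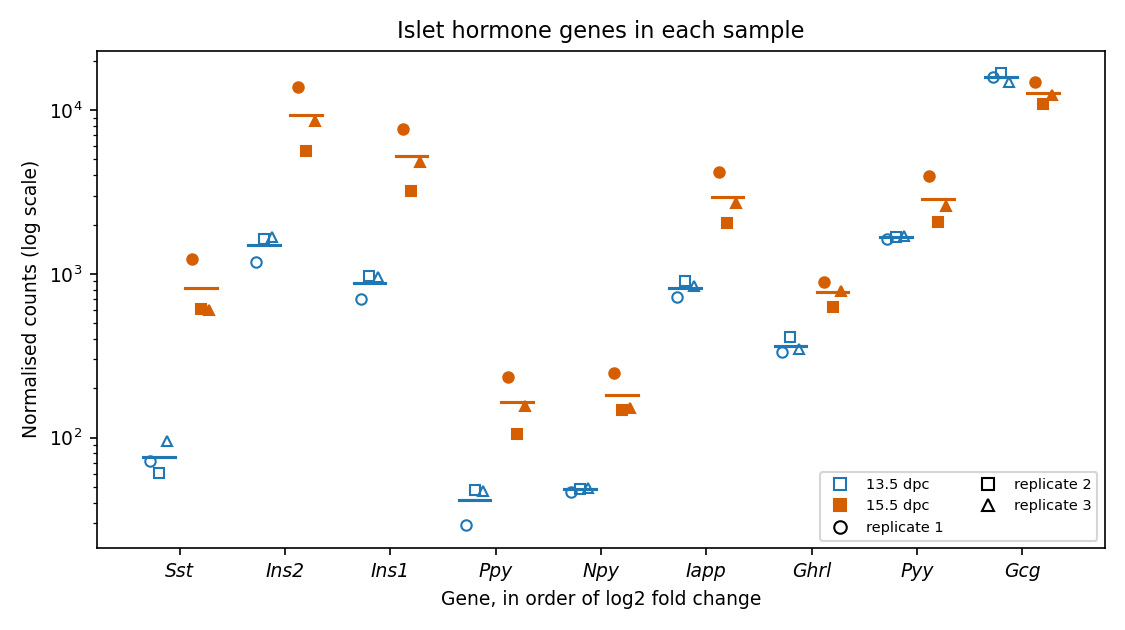
Normalised counts of each islet hormone gene (log scale) in the 3 samples at 13.5 dpc (open symbols) and the 3 at 15.5 dpc (filled), with the stage mean as a line and genes in order of fold change. Each 15.5 dpc sample lies above all 13.5 dpc samples except for *Gcg*, where the stages nearly meet, and replicate 1 is the highest 15.5 dpc sample for every gene.

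*Ins2*, the insulin gene that corresponds to that of other mammals, had 1188, 1625 and 1670 normalised counts in replicates 1, 2 and 3 at 13.5 dpc and 13823, 5667 and 8524 at 15.5 dpc. *Ins1*, the second insulin gene of rodents, had 707, 965 and 960 at 13.5 dpc, rising to 7674, 3210 and 4793 at 15.5 dpc. In both genes all 15.5 dpc samples stood above all 13.5 dpc samples, and the lowest 15.5 dpc value was 3.39 and 3.33 times the highest 13.5 dpc value. The stage difference was 6.25-fold for *Ins2* (log2 fold change 2.64, SE 0.33, edgeR adjusted p = 0.00221) and 5.95-fold for *Ins1* (2.57, SE 0.32, adjusted p = 0.00220). Without 15.5 dpc replicate 1 the differences were 4.75-fold and 4.56-fold.

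The insulin genes moved almost in step. *Ins1* supplied 37.3%, 37.3% and 36.5% of the insulin counts at 13.5 dpc and 35.7%, 36.2% and 36.0% at 15.5 dpc, although the insulin counts themselves ranged from 2080 to 15533. The exact 95% binomial intervals of the samples, which cover counting error only, ran from 35.2% to 39.4% in 13.5 dpc replicate 1 and from 34.9% to 36.5% in 15.5 dpc replicate 1, and so overlapped. The mean share of *Ins1* was 37.0% ± 0.45 (SD, n = 3) at 13.5 dpc and 35.9% ± 0.23 (n = 3) at 15.5 dpc. The difference of -1.07 percentage points gave p = 0.1 in a two-sided exact permutation test, the smallest p that 3 samples against 3 allow. *Ins2* was the protein-coding gene whose profile over the 6 samples was most like that of *Ins1*, with a root mean square difference of 0.04 in centred log2 counts (scaled to library size), followed by *Tspan1* (0.08) and *Nupr1* (0.10).

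*Iapp*, which encodes the amylin that β cells release with insulin (chr6:142298423-142303961, plus strand), had 718, 903 and 843 normalised counts at 13.5 dpc and 4178, 2031 and 2692 at 15.5 dpc. The stages did not overlap, and the difference was 3.61-fold (log2 fold change 1.85, SE 0.26, edgeR adjusted p = 0.00349). Per kilobase of exon, the ratio of *Ins2* to *Iapp* within a sample was 1.99, 2.16 and 2.38 at 13.5 dpc and 3.98, 3.36 and 3.81 at 15.5 dpc. Every 15.5 dpc ratio exceeded every 13.5 dpc ratio (exact permutation p = 0.1, the smallest possible).

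Glucagon, the α cell hormone that raises blood glucose, followed another course. *Gcg* (chr2:62474530-62483650, minus strand, 7 exons) had 15980, 16774 and 14849 normalised counts at 13.5 dpc and 14829, 10966 and 12381 at 15.5 dpc. The stages did not overlap, as in 46.4% of tested genes (22.8% with all 15.5 dpc samples higher, as for the other 8 members, and 23.6% with all lower, as for *Gcg*), but the highest 15.5 dpc sample was close to the lowest 13.5 dpc sample. The log2 fold change was -0.32 (SE 0.13, edgeR adjusted p = 0.114), and the call depended on the processing. Without 15.5 dpc replicate 1 the log2 fold change was -0.44 (adjusted p = 0.00692), with a trend of counts with gene length removed it was -0.53 (adjusted p = 0.000925), and with scaling to library size alone -0.54 (adjusted p = 0.00715). The genes with the most similar profiles were *Bambi*, *Ing4* and *C1qc*, with root mean square differences of 0.02 to 0.03, and none of these 3 passed the threshold.

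The different courses of glucagon and insulin shifted their ratio. Per kilobase, *Ins2* had 0.137, 0.179 and 0.207 times the counts of *Gcg* at 13.5 dpc, and 1.72, 0.953 and 1.27 times at 15.5 dpc. The insulin gene was thus below *Gcg* in all 3 samples at 13.5 dpc, and above it in replicates 1 and 3 at 15.5 dpc. The log2 ratio rose by 2.89 (mean -2.54 ± 0.30 at 13.5 dpc and 0.35 ± 0.43 at 15.5 dpc, SD, n = 3 each, exact permutation p = 0.1). With exon lengths of the newer GENCODE M21 annotation, in which *Ins2* is 1312 rather than 810 bases long, *Ins2* exceeded *Gcg* in 1 of the 3 samples at 15.5 dpc.

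Somatostatin, the δ cell peptide that inhibits the release of insulin and glucagon, had the largest change. *Sst* (chr16:23889581-23890844, minus strand, 2 exons) had 72.0, 60.9 and 95.5 normalised counts at 13.5 dpc and 1234, 614 and 599 at 15.5 dpc. The lowest 15.5 dpc sample was 6.27 times the highest 13.5 dpc sample, and the mean difference was 10.6-fold (log2 fold change 3.41, SE 0.34, edgeR adjusted p = 0.00108). It was 7.89-fold without 15.5 dpc replicate 1. Among the 15578 genes tested, 55 had a higher fold change. At 13.5 dpc the values rested on 79, 71 and 133 counts. The profiles most like that of *Sst* were those of *Gp2*, the zymogen granule membrane glycoprotein, with a root mean square difference of 0.18, *Clps*, the pancreatic colipase (0.23), and *Erp27* (0.25), while the nearest hormone gene was *Ins2* (0.47).

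The pancreatic polypeptide family, whose members share a hairpin-like fold, was represented by *Ppy*, *Pyy* and *Npy*, and all 3 genes rose. *Ppy*, the hormone of PP cells (chr11:102099930-102101319, minus strand), had 29.2, 48.0 and 47.4 normalised counts at 13.5 dpc and 235, 105 and 156 at 15.5 dpc, from 32 to 66 and 103 to 170 counts. The stages did not overlap, and the difference was 3.92-fold (log2 fold change 1.97, SE 0.33, edgeR adjusted p = 0.00693). Its neighbour *Pyy* (chr11:102106676-102107832, minus strand), which encodes peptide YY, had 1634, 1688 and 1710 at 13.5 dpc and 3968, 2061 and 2607 at 15.5 dpc. It rose 1.71-fold (log2 fold change 0.78, SE 0.22, adjusted p = 0.0436). The call for *Pyy* was lost without any one of the 13.5 dpc samples (adjusted p = 0.143, 0.133 and 0.133), without 15.5 dpc replicate 3 (0.0981), and with library size alone (0.0573).

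Per kilobase, *Pyy* had 44.4, 27.9 and 28.6 times the counts of *Ppy* at 13.5 dpc and 13.4, 15.5 and 13.2 times at 15.5 dpc. The ratios of the stages did not overlap (exact permutation p = 0.1, the smallest possible), and *Pyy* remained the main transcript of the family at both stages. *Npy*, neuropeptide Y (chr6:49822710-49829507, plus strand), is made by sympathetic neurons and also by endocrine cells of the fetal pancreas. At 13.5 dpc it reached 46.5, 48.9 and 49.6 normalised counts in the 3 samples, and at 15.5 dpc 246, 148 and 151, a 3.74-fold rise (log2 fold change 1.90, SE 0.23, edgeR adjusted p = 0.00211) with no overlap.

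The neuronal markers did not rise with *Npy*. Over all tested genes, 10.7% fell and 11.6% rose. Of the 6 neuronal genes tested, 5 fell and none rose (0 also at an unadjusted p under 0.05 and with DESeq2), with a median log2 fold change of -0.93. Only 4 fell with DESeq2 or without 15.5 dpc replicate 1, and only 3 with a replicate block, without any one of the 13.5 dpc samples or without 15.5 dpc replicate 3. The summed counts of the list were 2409 to 2514 at 13.5 dpc and 1136 to 1262 at 15.5 dpc, of which *Hand2* alone made up 82.9% to 86.1%. Without *Hand2* the sums were 335 to 371 at 13.5 dpc and 194 to 208 at 15.5 dpc. *Hand2*, a transcription factor of sympathetic neurons that mesenchyme also expresses, fell by 1.05 (edgeR adjusted p = 0.000706), while *Th*, the tyrosine hydroxylase of catecholamine synthesis, had a log2 fold change of 0.33 (adjusted p = 0.354). The noradrenergic marker *Dbh* was too low to test, at 5.04 to 11.5 normalised counts.

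*Ghrl* encodes ghrelin, the peptide of ε cells, which become rare in the adult islet (chr6:113716119-113719880, minus strand, 5 exons). It had 332, 411 and 349 normalised counts at 13.5 dpc and 894, 624 and 791 at 15.5 dpc. All 15.5 dpc samples exceeded all 13.5 dpc samples, and the rise was 2.11-fold (log2 fold change 1.08, SE 0.16, edgeR adjusted p = 0.00411). *Mboat4*, the acyltransferase that activates ghrelin, had 46.7 to 52.3 normalised counts at 13.5 dpc and 36.8 to 61.7 at 15.5 dpc (log2 fold change -0.03, adjusted p = 0.919), and the ghrelin receptor gene *Ghsr* had 0 counts in all 6 samples, which allows up to 3 counts in each.

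With only 2 stages, the order of rise is an order of size and not of time. By log2 fold change it was *Sst*, *Ins2*, *Ins1*, *Ppy*, *Npy*, *Iapp*, *Ghrl*, *Pyy* and *Gcg*. Neighbours were compared by their ratio within each sample, which does not depend on scaling between samples. The order and the pairs come from the same samples as these ratios, so the ratios are given as a description. In 5 of the 8 neighbouring pairs the ratios did not overlap between the stages: the log2 ratio of *Sst* to *Ins2* was higher at 15.5 dpc by 0.80, that of *Ins2* to *Ins1* by 0.07, that of *Ins1* to *Ppy* by 0.54, that of *Iapp* to *Ghrl* by 0.72 and that of *Pyy* to *Gcg* by 1.05. In the other 3 they overlapped, with differences of 0.08 for *Ppy* and *Npy*, 0.08 for *Npy* and *Iapp* and 0.35 for *Ghrl* and *Pyy*. With 3 samples per stage no neighbouring pair could pass a threshold of 0.05, since the smallest exact permutation p is 0.1. The test therefore cannot decide which of the 8 pairs differ.

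**Figure D2:**
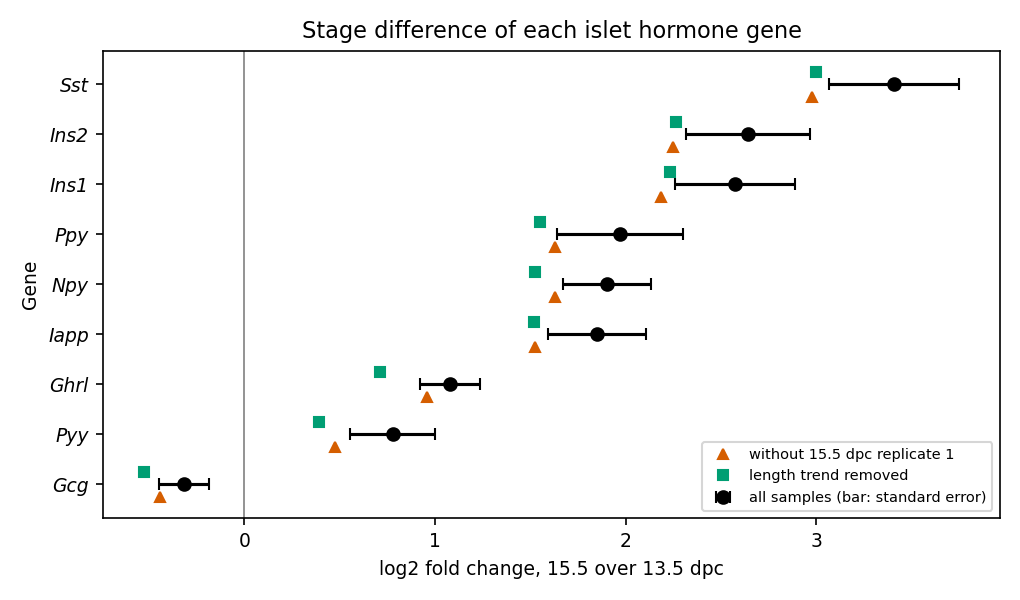
Log2 fold change from 13.5 to 15.5 dpc of each islet hormone gene with its standard error (circles), without 15.5 dpc replicate 1 (triangles) and with the gene length trend removed (squares). Both alternatives lower every value, to 2.98 and 3.00 for *Sst* and to -0.44 and -0.53 for *Gcg*, and *Sst*, *Ins2* and *Ins1* remain the highest.

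The members are short genes, of 500 to 1494 exon bases, and the 15.5 dpc samples differed in a way that moved with gene length. Between 15.5 dpc replicates 1 and 2 the median log2 difference was 1.01 over the 9 members, 0.74 over the 1363 tested genes under 1000 bases, and -0.01 over all genes. With the length trend removed in each library, all 9 members passed the threshold, 8 higher and *Gcg* lower, in a fit that called 5104 of the 15578 genes, 2812 of them higher. The rise of *Sst* was then 7.98-fold, that of *Ins2* 4.80-fold, that of *Ghrl* 1.64-fold and that of *Pyy* 1.31-fold.

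As shares of the counts per kilobase of the 9 genes, the make-up of the hormone transcripts changed from glucagon to insulin. *Gcg* held 62.6%, 59.6% and 56.7% at 13.5 dpc and 19.9%, 28.8% and 24.7% at 15.5 dpc, a difference of -35.2 percentage points between means of 59.6% ± 2.97 and 24.5% ± 4.41 (SD, n = 3 each, exact permutation p = 0.1). *Ins1* and *Ins2* together held 12.7%, 15.7% and 17.2% at 13.5 dpc and 49.4%, 39.8% and 45.5% at 15.5 dpc. Neither pair of ranges overlapped. These shares sum to 100, so that a rise of one gene lowers the others.

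The share of *Sst* was 0.72% ± 0.19 at 13.5 dpc and 3.71% ± 0.63 at 15.5 dpc, and that of *Iapp* was 4.72% ± 0.35 and 8.34% ± 0.24 (SD, n = 3). *Pyy*, although it rose in counts, had a lower share at 15.5 dpc, with 14.9% ± 0.66 and 12.6% ± 0.23. The share of *Ghrl* overlapped between the stages, with 3.87% ± 0.24 and 4.17% ± 0.67 (n = 3, exact permutation p = 0.5). With the GENCODE M21 lengths, where *Ghrl* has 1079 rather than 527 bases, its mean shares were 2.02% and 2.40%. *Ppy* and *Npy* had at most 1.03% in each sample. The 9 genes together took 0.175% to 0.192% of all counts at 13.5 dpc and 0.315%, 0.199% and 0.246% at 15.5 dpc.

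**Figure D3:**
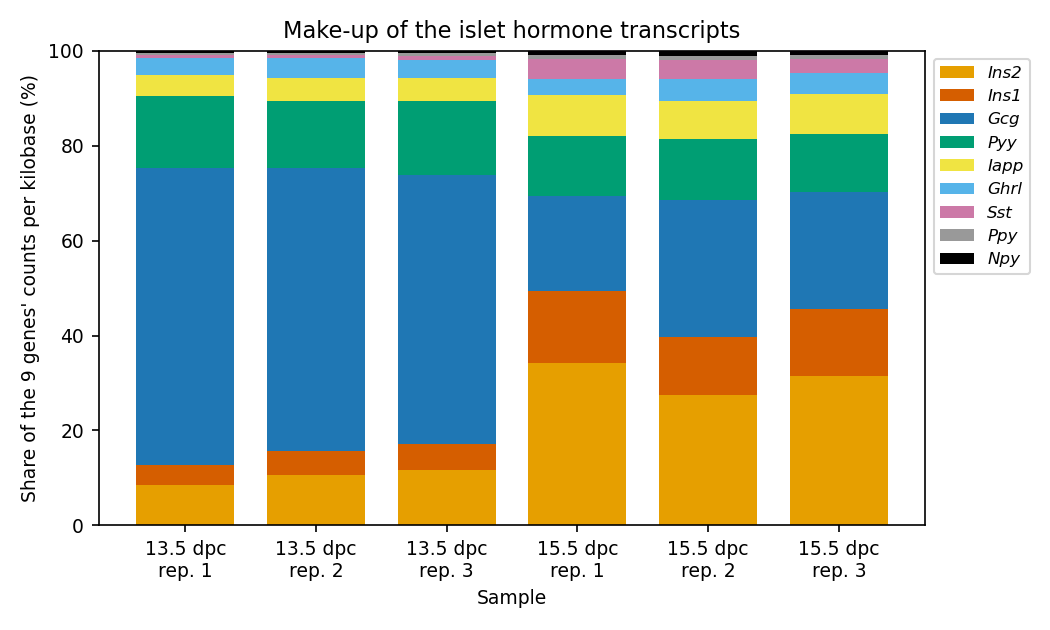
Share of each islet hormone gene in the summed counts per kilobase of the 9 genes (stacked, percent) in each of the 6 samples. *Gcg* takes 56.7% to 62.6% at 13.5 dpc and 19.9% to 28.8% at 15.5 dpc, where the insulin genes take 39.8% to 49.4%.

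Ordered by level, in normalised counts per kilobase, *Gcg* led at 13.5 dpc with a mean of 10621, followed by *Pyy* (2658), *Ins2* (1845), *Ins1* (864), *Iapp* (843), *Ghrl* (690), *Sst* (127), *Npy* (85.3) and *Ppy* (83.1). The order of *Ins1* and *Iapp* held in 2 of 3 samples and that of *Npy* and *Ppy* in 1 of 3, so that these neighbours could not be ranked. At 15.5 dpc *Ins2* had the highest mean level (11528), followed by *Gcg* (8518), *Ins1* (5143), *Pyy* (4561), *Iapp* (3046), *Ghrl* (1460), *Sst* (1362), *Ppy* (331) and *Npy* (321). Here *Ins2* and *Gcg*, *Ins1* and *Pyy*, *Ghrl* and *Sst*, and *Ppy* and *Npy* kept their order in 2 of 3 samples only. With the GENCODE M21 lengths the first place at 15.5 dpc passed to *Gcg* (8518), above *Ins2* (7117), and *Sst* stood above *Ghrl* in all 3 samples, with means of 1131 and 713.

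The genes that process, sense or regulate these hormones had smaller median changes than the hormone genes, whereas the 8 acinar genes had a larger one (2.59). Of 10 processing genes, 4 rose and 1 fell, with a median log2 fold change of 0.44. For this list and those below, the background over all tested genes was 11.6% called higher and 10.7% lower. *Slc30a8*, the zinc transporter of insulin granules, rose by 1.49 on the log2 scale (SE 0.25, edgeR adjusted p = 0.00672), with 24.6 to 48.1 normalised counts at 13.5 dpc and 91.3 to 119 at 15.5 dpc. *Cpe*, carboxypeptidase E, rose by 0.79 (adjusted p = 0.00723). The prohormone convertases *Pcsk1* and *Pcsk2* rose by 0.54 and 0.49 (adjusted p = 0.0297 and 0.0110), and both calls were lost with library size alone and without single samples. *Ptprn*, a membrane protein of secretory granules, fell by 0.53 (adjusted p = 0.0139), a call that was lost without any one of the 13.5 dpc samples or without 15.5 dpc replicate 3.

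Of 8 transcription factors known from β cells, *Mafa* alone rose, with 33.4 to 47.4 normalised counts at 13.5 dpc and 111 in each sample at 15.5 dpc (log2 fold change 1.52, SE 0.17, edgeR adjusted p = 0.00173). *Mafa* activates insulin genes in maturing β cells. *Nkx6-1* and *Nkx2-2* fell, by 0.39 and 0.33 (adjusted p = 0.0178 and 0.0366), and lost the call in several fits without 1 sample and in the fit with a replicate block. *Pdx1* had a log2 fold change of 0.15 (adjusted p = 0.266), a negative sign under scaling to library size alone, and a call as higher with the length trend removed (0.23, adjusted p = 0.0285). For *Pax4* the log2 fold change was -0.41 (adjusted p = 0.0558), and it was called lower in 5 alternatives: upper quartile scaling, library size alone, the length trend removed, and without 15.5 dpc replicate 1 or 2 (lowest adjusted p = 0.0152). The median of the list was -0.24, and 1 of 8 called higher is close to the 11.6% of all tested genes.

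The factors known from α and δ cells had a median log2 fold change of -0.31, and DESeq2 and edgeR called none of the 7 higher (1 at an unadjusted p under 0.05, 2 with the length trend removed and 1 without 15.5 dpc replicate 1). *Hhex*, which is required for δ cells and is also expressed in progenitors, had 649 to 720 normalised counts at 13.5 dpc against 447 to 457 at 15.5 dpc, and fell by 0.60 (SE 0.09, edgeR adjusted p = 0.00458). *Sst* and *Hhex* thus moved in opposite directions.

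Of 7 endocrine progenitor genes, 3 fell and none rose (0 also at an unadjusted p under 0.05 and with DESeq2). Without 15.5 dpc replicate 2 the edgeR fit called 5 lower and 1 higher, *Hes6* (adjusted p = 0.0102), but that fit called 7620 of 15862 genes over the whole table. *Sox4*, which is also expressed outside the endocrine lineage, fell by 1.01 (adjusted p = 0.00411), *Insm1* by 0.36 (adjusted p = 0.0287) and *Neurog3* by 0.33 (adjusted p = 0.0372, edgeR), with 2193 to 2310 normalised counts at 13.5 dpc and 1662 to 1879 at 15.5 dpc. The calls for *Insm1* and *Neurog3* were lost with the replicate block and in 4 of the fits without 1 sample. *Fev*, a factor of cells leaving the progenitor state, had a log2 fold change of -0.28 (adjusted p = 0.110), and was called lower with library size alone, with the length trend removed and without 15.5 dpc replicate 1.

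Of 19 receptor genes for these peptides, 11 had enough counts to be tested, 1 fell and none rose (0 also with DESeq2, and 1 at an unadjusted p under 0.05, *Sstr2*). These counts are close to the shares over all tested genes, 10.7% lower and 11.6% higher. Without 15.5 dpc replicate 2, *Sstr2* was called higher (edgeR adjusted p = 0.0398) and *Insr* lower (adjusted p = 0.0134), in a fit that called 7620 of 15862 genes. *Sstr5*, another somatostatin receptor, had a log2 fold change of -1.20 (adjusted p = 0.0719) and was called lower with library size alone and with the length trend removed. *Calcr* encodes the calcitonin receptor, which forms the amylin receptor together with RAMP proteins. It fell, with 39.2 to 40.9 normalised counts at 13.5 dpc and 15.2 to 20.5 at 15.5 dpc (log2 fold change -1.19, SE 0.20, edgeR adjusted p = 0.00658). The insulin receptor *Insr* had a log2 fold change of -0.26 (adjusted p = 0.447), the glucagon receptor *Gcgr* of 0.37 (adjusted p = 0.219) and the somatostatin receptor *Sstr2* of 0.50 (adjusted p = 0.0637). The neuropeptide Y receptor genes *Npy5r* and *Npy6r* had 0 counts in all samples.

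Among 12 other peptide hormone genes of gut and nerve, 8 were tested, 1 rose and 2 fell. The shares over all tested genes were 11.6% and 10.7%. *Cck*, cholecystokinin, fell by 1.15 (adjusted p = 0.00419) and *Sct*, secretin, by 0.98 (adjusted p = 0.0164, edgeR), the latter call being lost without 13.5 dpc replicate 1 or 3. *Penk*, the enkephalin precursor, rose by 0.54 (adjusted p = 0.0409), a call that was lost with library size alone, with the replicate block and in 4 of the fits without 1 sample.

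**Figure D4:**
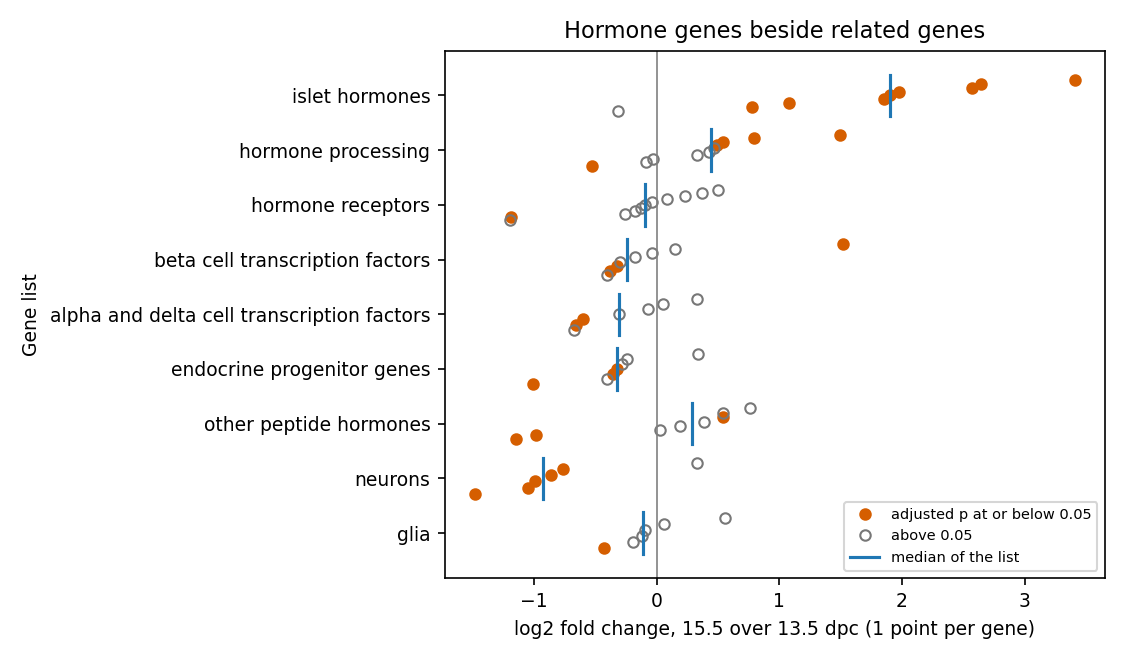
Log2 fold change from 13.5 to 15.5 dpc of every tested gene of the islet hormone list and of 8 related lists (1 point per gene, filled where the adjusted p is at or below 0.05), with the median of each list as a line. The hormone median is 1.90, and those of the 8 lists drawn lie between -0.93 and 0.44, while the acinar list, which is not drawn, has a median of 2.59.

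For the remaining hormone genes, the profiles most alike over the 6 samples were those of *C2cd4a* for *Ppy* (root mean square difference of centred log2 counts 0.11, with *Iapp* next at 0.15 and *Ndufa4l2* at 0.17). Those like *Iapp* included *Chac2* (0.08) and *Lin37* (0.10). *Npy* was nearest to *Asns* (0.09), *Hid1* (0.09) and *Perp* (0.11), *Ghrl* to *Ndrg2* (0.06), *Tinag* (0.07) and *Them6* (0.07), and *Pyy* to *Cdkn3*, *Mrps28* and *Sdhb* (0.04 to 0.05). With 2 stages of 3 samples, these values rest mostly on the size of the stage difference.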

How the data were processed

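The authors pooled embryonic pancreata, enriched poly(A) RNA, prepared strand-specific libraries, aligned the reads to mm10 with GSNAP and deposited raw counts of unique reads per Ensembl gene from featureCounts. Whether counting used the strand is not given in the sources used here. The submitters' processing notes name bcl2fastq 1.8.4 and featureCounts 1.4.6.

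Counts were tested in R 4.3.3 with edgeR 4.0.16 (filterByExpr, TMM, quasi-likelihood test, no covariate, Benjamini-Hochberg adjustment over 15578 genes, threshold 0.05). DESeq2 1.42.0 was an alternative. The other alternatives were other scalings and filters, a replicate block, removal of a lowess trend with gene length (span 0.5), genes above 1% taken out, other thresholds and each sample left out in turn. Levels between genes were compared per kilobase of deposited exon length. P-values measure the spread between pools. On simulated data (15413 genes), 71 of 86 genes changed by a log2 fold change of 1 and 111 of 114 changed by 2 were recovered, with 9 false calls. Figures were drawn with matplotlib 3.10.9. Symbols matched 35449 of 37224 identifiers.

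The members and gene lists were chosen with earlier results of these data known. Genes named are all members, up to 5 called genes of each list with the largest changes, a fixed set of processing, regulator and receptor genes whatever their value, and the 3 protein-coding genes nearest to each member. A few genes that this rule names are left out of the text.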

Additional observations from a re-analysis of the deposited data

How the results depend on the processing

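In the 15 alternatives that refitted the fold changes, 127 of 135 comparisons of the 9 hormone genes kept direction and call, 5 lost the call (all *Pyy*), 3 gained it (all *Gcg*) and none changed direction. *Sst*, *Ins2* and *Ins1* led the order and *Ghrl*, *Pyy* and *Gcg* closed it in all 15, and the order was identical in 10. The 2 other thresholds used the same fold changes and changed no member's call. Between 7 and 9 members were called with single samples left out. The number of genes called over the whole table was less stable: 3467 became 5303 at an adjusted p of 0.1 and 1539 at the thresholds of the paper (adjusted p of 0.1, over 100 normalised counts, fold below 0.6 or above 1.6). These were applied here to the edgeR fit and to all gene types, whereas the paper used DESeq2 and left out pseudogenes, unknown transcripts and RNAs that are not mRNAs. With single samples left out the number of genes called ranged from 1235 to 7620, with 1235, 1331 and 1402 without 13.5 dpc replicates 1, 2 and 3, and 4266, 7620 and 1438 without 15.5 dpc replicates 1, 2 and 3. The cause was not tested. Scaling to library size alone shifted the median over all tested genes to a log2 fold change of -0.22 and called 4085 genes, of which 1133 were higher, against 1805 of 3467. The difference in the share of *Gcg* was -35.2 percentage points among 9 genes and -26.1 when *Ins1* and *Ins2* were left out of the sum, which removes the genes that gained most. GENCODE M21 lengths, chosen after seeing the data, gave -34.8. A fit with a replicate block called 2676 genes, 8 members among them. Deviations of same-numbered samples correlated at 0.22, -0.22 and 0.04, so the numbers were not taken as pairs. *Ppy*, *Npy* and *Sst* at 13.5 dpc rest on 32 to 133 counts, where counting error is largest.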
